A study of Bos taurus with 6 samples.

Results

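Integrins, laminins and the adhesive glycoproteins of the extracellular matrix were followed in bovine granulosa cells (GC), the cells that line the ovarian follicle, after culture at normal or high plating density. All rows of the deposited array table whose gene symbol begins as an integrin α or β gene or as a laminin α, β or γ gene were taken, together with NID1, NID2, FN1, HSPG2, AGRN, SPARC, SPP1, TNC, VTN, FBN1, FBLN1, FBLN2 and FBLN5. This gave 57 of 26773 transcript clusters, the array's unit for a gene, with 55 distinct symbols. LAMA4 is measured by 3 transcript clusters. Of the 57, 26 are integrin chains, 13 are laminin chains, 4 are nidogens or basement membrane proteoglycans, 5 are adhesive or matricellular glycoproteins and 4 are fibulins or fibrillin. The other 5 carry an integrin-like symbol but are no integrin chains (ITGB1BP1, ITGB1BP2, ITGB1BP3, ITGB3BP and ITGBL1).

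RNA of 6 cultures was hybridized, 3 plated at 100000 cells per well (normal density) and 3 at 1000000 cells per well (high density). Both groups were primary GC, pooled from small to medium follicles of abattoir ovaries, stored frozen and plated on a collagen coating. All were kept serum-free for 9 days in alpha-MEM that contained 2 μM androstenedione, 50 ng/ml IGF-1 and 20 ng/ml FSH. Since each preparation was a pool of follicles from many cows of unknown cycle stage, the replicates are cultures and not single animals, and the p-values measure only the spread between these cultures.

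Integrins are receptors made of an α and a β chain that span the cell membrane and join matrix proteins outside the cell to the actin cytoskeleton inside. The α chain largely sets which ligand is bound, and many α chains share the same β1 chain. Laminins are trimers of an α, a β and a γ chain and form, with nidogen, perlecan and type IV collagen, the basement membrane on which the GC layer of a follicle rests. Fibronectin, tenascin-C, vitronectin and osteopontin are ligands of integrins, while fibulins and fibrillin belong to elastic and microfibril networks. In the ovary the basement membrane of the follicle is broken down when the follicle turns into a corpus luteum.

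The deposited values are log2 signals, already normalized between arrays, with array medians between 4.34 and 4.43. The 95th percentile of the 82 reporter control rows, a log2 signal of 4.62, was taken as the background level. High density replicate 2 stood apart from the other high density cultures, at Euclidean distances of 47.5 and 45 over all transcript clusters, whereas replicates 1 and 3 were 35.3 apart and normal density cultures 31.2 to 32.4. It was the high density culture farthest from its group mean for 31 of the 57 transcript clusters. Signals of the 12 GC marker genes listed for a check of the label were all above background in at least 1 group, among them AMH and FOXL2. All 11 leukocyte markers and 9 of 10 endothelial markers were at or below background at both densities.

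Across the family, the genes that changed were 6 integrin α chains, FN1, TNC, FBLN1 and FBLN5, while no laminin chain, no integrin β chain and no nidogen or proteoglycan passed both thresholds. A transcript cluster is termed called when its fold change (FC) exceeded 1.5 in size and its Benjamini-Hochberg adjusted p from limma was below 0.05, with the adjustment made over the whole table. Of the 57, 10 were called (17.5%), compared with 7.49% of all transcript clusters. The family was chosen with earlier results of these data known. How far its shares of calls come from that choice cannot be told. Higher signals at high density were called for 9 (15.8%, against 3.97% of the table), and a lower signal for 1, ITGA8 (3.51% of the table were called lower). In a fit limited to transcript clusters with a mean above background, 13% of the table were called. Of the 32 family members left in that fit, 8 were called higher and 1 lower. The median fold change on the log2 scale (log2 FC, high minus normal density, given with its standard error, SE) was 0.04 for the 57 and 0.02 for the table. At any FC, 17 of the 57 had an adjusted p below 0.05 by limma, compared with 5106 of 26773 (19.1%) in the table. In 32 of the 57 (56.1%) the signals of both densities did not overlap, compared with 37.3% of the table. Genes that pass both thresholds are likely to have signals that do not overlap. For a called gene, separate groups therefore add no evidence. At a share of 7.49%, few or no calls are expected among 13 laminin chains, 8 β chains or 4 nidogens and proteoglycans. Both means were at or below background for 7 of the 13 and 4 of the 8. The lack of calls alone therefore does not set these groups apart.

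Signal strength limits what can be said of some genes. Neither density had a mean above background for 25 of the 57 transcript clusters, and a difference there can be hidden. Of the 47 that were not called, 39 had a 95% interval of the log2 FC lying wholly within 1.5-fold in either direction, 19 of them with a mean above background. Of the 10 calls, 6 had both means above background, 3 had only the higher mean above it (TNC, ITGA1 and ITGA8) and 1 had neither (ITGA11).

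**Figure D1:**
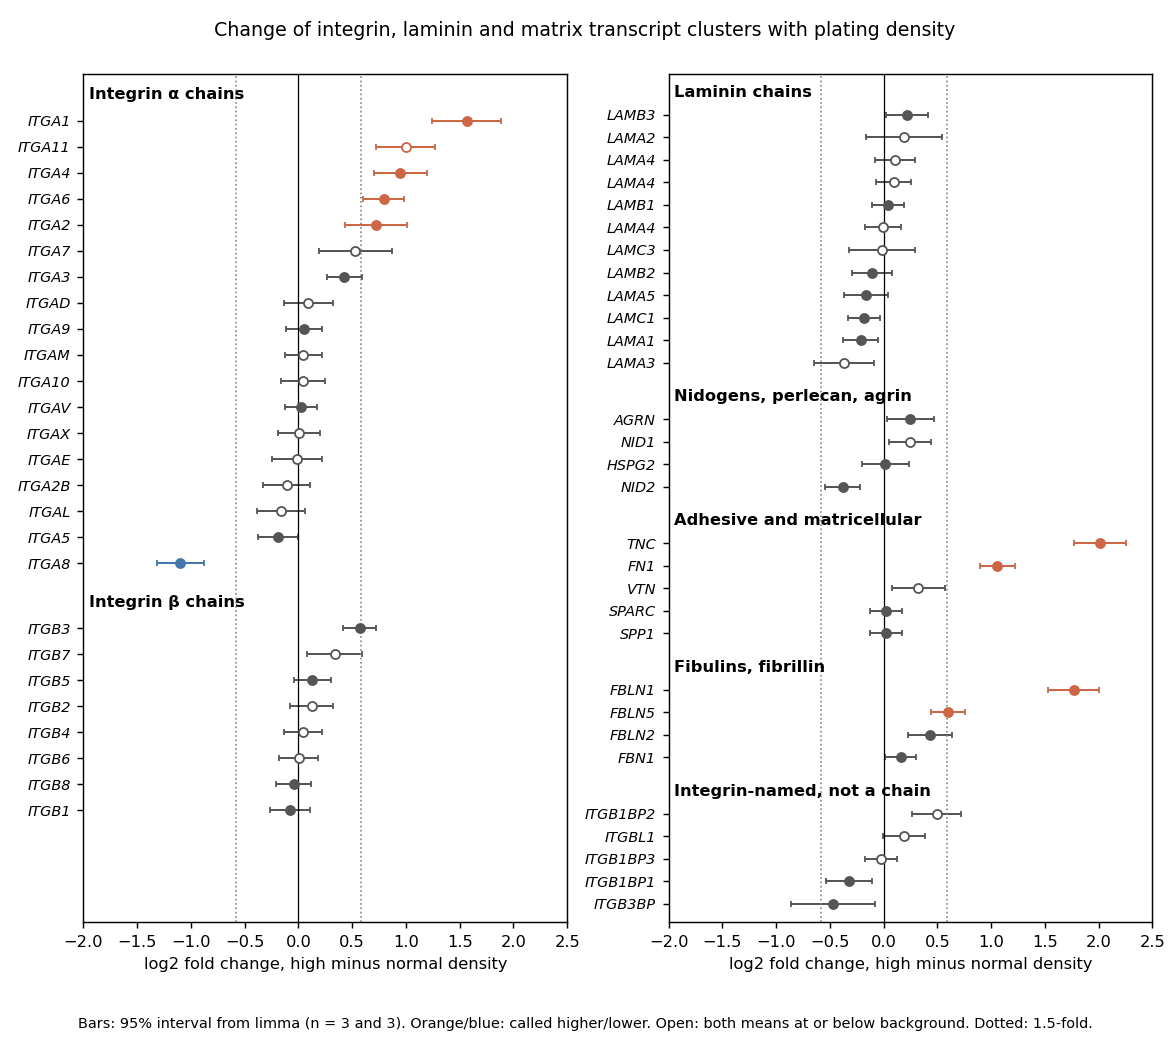
Log2 fold change (high minus normal density, x axis) of 56 of the 57 transcript clusters, grouped by role on the y axis, with the 95% interval from limma (n = 3 cultures per density) and open symbols where both means were at or below background. The called rises lie among the integrin α chains, TNC, FN1 and the fibulins, ITGA8 is the only called fall, and the laminin chains drawn all lie between −0.37 and 0.22.

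Among the integrin α chains that bind collagen, 3 of 4 were called, compared with 7.49% of the whole table. They were 3 of the 6 calls among receptors. Only ITGA2 of these 3 had both means above background. Of the 4 such chains, ITGA1, ITGA2 and ITGA11 had higher signals at high density, while ITGA10 did not differ beyond its error. ITGA1 (transcript cluster 12787942), which pairs with the β1 chain and binds mainly type IV and fibrillar collagens, had log2 signals of 3.45, 3.31 and 3.35 at normal density and of 4.96, 5.19 and 4.65 at high density. All high density cultures were above all normal density cultures, and their highest was replicate 2. The log2 FC was 1.56 (SE 0.14, adjusted p = 3.34e-04 by limma), a 2.96-fold rise that began below background and so is limited in its size.

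ITGA2 (12786958), the other widely used collagen receptor chain, was well above background in all cultures. Its log2 signals were 6.22, 6.31 and 6.24 at normal density and 6.96, 7.23 and 6.74 at high density. The groups were separate, with replicate 2 again the highest. The log2 FC was 0.72 (SE 0.12, adjusted p = 0.00655 by limma). ITGA1 and ITGA2 are next to each other on the bovine RefSeq gene map (assembly ARS-UCD2.0), with no protein-coding gene in between.

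ITGA11 (12695388), a receptor of fibrillar collagen known from fibroblasts, had log2 signals of 3.09, 3.09 and 3.14 at normal and of 4.16, 3.85 and 4.30 at high density, which makes a log2 FC of 0.998 (SE 0.12, adjusted p = 0.00124 by limma). Every one of these values lay below the background level, so that the call rests on dim signals, and here replicate 2 was the lowest of the high density cultures. For ITGA10 the means were 3.42 ± 0.06 and 3.47 ± 0.13 (SD, n = 3), both below background, and the 95% interval of the log2 FC ran from −0.16 to 0.25.

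Beside these receptors, 3 of 8 marker genes of fibroblasts or stroma were called higher and none lower, compared with 3.97% and 3.51% of the table. In the fit limited to means above background, 13% of the table were called in either direction. All 8 were above background at both densities, and their average log2 signal per culture went from between 7.76 and 7.85 at normal density to between 8.36 and 8.48 at high density. THY1 had the largest log2 FC (1.71), followed by COL1A1 (1.15) and PDGFRB (0.94). Of the 12 GC markers, 6 were called lower and 1 higher (3.51% and 3.97% of the table). Their average log2 signal per culture was between 7.85 and 8.04 at normal density and between 7.10 and 7.21 at high density. The markers did not move alike. The largest falls were those of CYP19A1 (log2 FC −2.80), FSHR (−2.21) and INHA (−2.16), while HSD17B1 rose (1.26). The 5 that were not called, AMH, AMHR2, NR5A1, GJA1 and CYP11A1, had log2 FCs from −0.31 to 0.26. The part of stromal cells, or of fewer GC, in the changes of ITGA1, ITGA11, FN1, TNC and FBLN1 was not tested. In RNA of whole cultures, more cells of a type and more RNA per cell cannot be told apart.

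The α chains that bind laminin were all on the side of high density, though only ITGA6 was called. ITGA6 (12783018) pairs with the β1 or β4 chain and is the main laminin receptor of many epithelia. Its log2 signals were 8.50, 8.39 and 8.43 at normal density and 9.14, 9.36 and 9.20 at high density. The ranges were apart, and the log2 FC was 0.79 (SE 0.08, adjusted p = 7.12e-04 by limma). ITGA3, which pairs with β1, had means of 6.39 ± 0.06 and 6.81 ± 0.04 (SD, n = 3) and passed the adjusted p (0.00534 from limma) but not the FC threshold, with a log2 FC of 0.43. ITGA7, best known from muscle, had a log2 FC of 0.53 (SE 0.15, adjusted p = 0.0428 by limma), with both means below background. Without high density replicate 2 its log2 FC was 0.68 and it was called.

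ITGA4 (12780367), the chain that binds fibronectin and the vascular adhesion molecule VCAM1, had log2 signals of 7.30, 7.28 and 7.38 at normal density. At high density they were 8.21, 8.48 and 8.11. The groups did not overlap, and the log2 FC was 0.95 (SE 0.11, adjusted p = 9.77e-04 by limma), a 1.93-fold rise. ITGA9, its closest relative and a receptor of tenascin-C and osteopontin, had means of 8.21 ± 0.02 and 8.25 ± 0.09 (SD, n = 3), and the 95% interval of its log2 FC was −0.12 to 0.22.

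ITGA8 was the only family member called lower. Its product pairs with β1 and binds ligands with the tripeptide Arg-Gly-Asp (RGD), such as nephronectin, fibronectin and tenascin-C. The log2 signals of ITGA8 (12719021) were 5.17, 5.14 and 5.10 at normal density and 4.08, 4.18 and 3.87 at high density. All normal density values were above background and all high density values below it, which limits the size of the fall. The log2 FC was −1.10 (SE 0.09, adjusted p = 2.98e-04 by limma).

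Other α chains of RGD receptors did not reach the thresholds. ITGAV, the shared chain of the vitronectin receptors, had a strong mean signal (11.18 ± 0.03 and 11.21 ± 0.03, SD, n = 3), and the 95% interval of its log2 FC was −0.13 to 0.18. ITGA5, the α chain of the classical fibronectin receptor, had a log2 FC of −0.19 (95% interval −0.37 to −0.01, adjusted p = 0.139 by limma), with groups that did not overlap. ITGA2B, the platelet chain, was below background at both densities. Leukocyte chains, namely ITGAD, ITGAE, ITGAL, ITGAM, ITGAX, ITGB2 and ITGB7, were at or below background throughout, and none of these 7 was called.

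**Figure D2:**
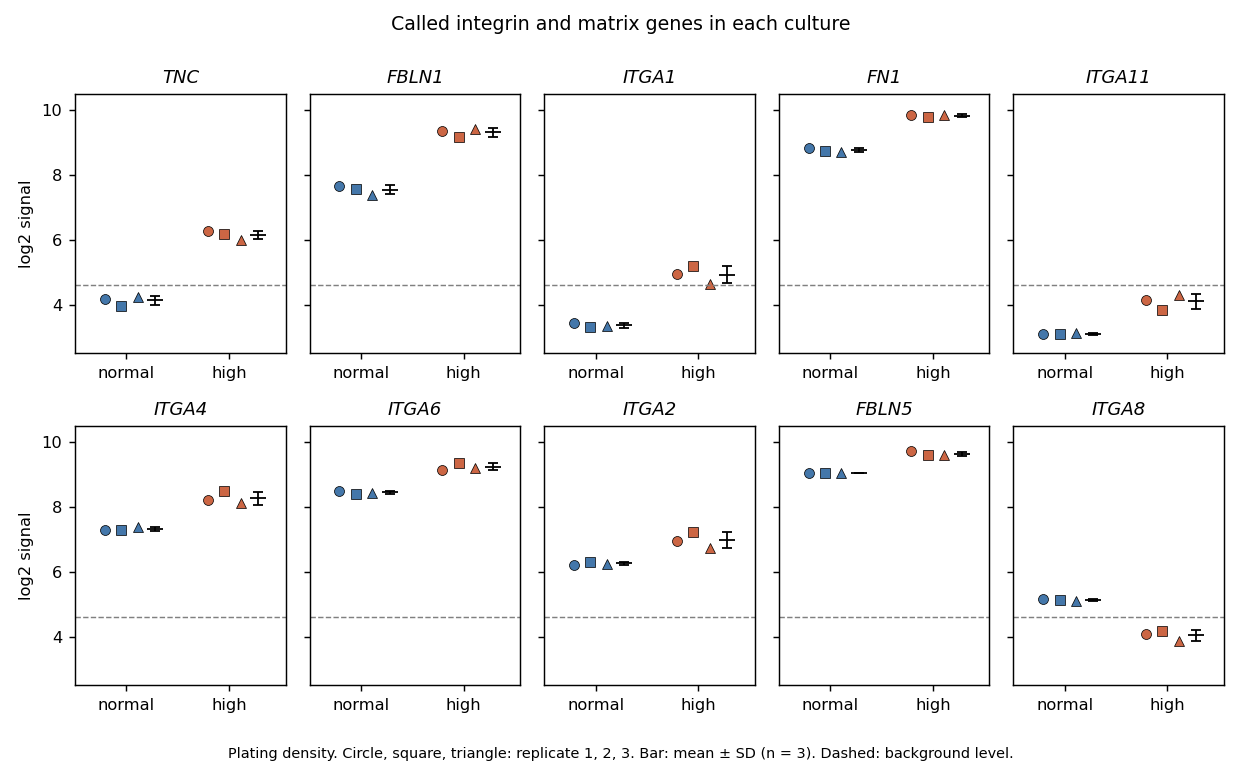
Log2 signal (y axis) of the 10 called genes in each culture at normal and high plating density (x axis), ordered by log2 FC, with the mean and SD of 3 cultures beside the points and the background level of 4.62 as a dashed line. For each of the 10 the densities are separate, as they are for 37.3% of all transcript clusters. Genes that pass both thresholds are likely to be separate, so this is no added evidence for the calls. TNC and ITGA1 start below the background level, ITGA8 ends below it and ITGA11 stays below it.

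Among the β chains, none of 8 was called, and ITGB3 came closest. ITGB3 forms the vitronectin receptor with ITGAV. Its log2 signals were 8.09, 8.04 and 8.03 at normal density and 8.62, 8.67 and 8.59 at high density. These groups were clearly separate with a small spread, and the log2 FC of 0.57 (SE 0.07, adjusted p = 0.0011 by limma) fell just short of the FC threshold of 0.58 on the log2 scale. It exceeded that threshold when replicate 1 of normal density or replicate 3 of high density was left out, at 0.59 in both cases, and after a second quantile normalization, at 0.60. These were the only 3 of 16 alternatives in which it was called. After the arrays were centred on a common median, its log2 FC was 0.53.

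ITGB1, the β chain that the collagen-binding chains, ITGA3 to ITGA9 and ITGAV can pair with, had log2 signals of 10.87, 10.77 and 10.82 at normal density and of 10.68, 10.86 and 10.67 at high density. The groups overlapped. Its log2 FC of −0.08 had a 95% interval from −0.27 to 0.10. Among its possible partners, the intervals of ITGA1 (1.25 to 1.88), ITGA11 (0.72 to 1.27), ITGA4 (0.70 to 1.19), ITGA6 (0.60 to 0.99), ITGA2 (0.43 to 1.01), ITGA3 (0.26 to 0.59), ITGA7 (0.19 to 0.87) and ITGA8 (−1.32 to −0.88) lay outside that range. Those of ITGA5 (−0.37 to −0.01), ITGA9 (−0.12 to 0.22), ITGA10 (−0.16 to 0.25) and ITGAV (−0.13 to 0.18) overlapped it. ITGB5 and ITGB8, which pair with ITGAV, had log2 FCs of 0.13 and −0.05. ITGB4, the hemidesmosome partner of ITGA6, and ITGB6 were below background at both densities, with log2 FCs of 0.04 and 0.00.

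No laminin chain was called. Of the 13 transcript clusters for 11 laminin genes, 6 had means above background at both densities, and for all of these the 95% interval stayed within 1.5-fold. LAMA1, LAMB1 and LAMC1 together form a laminin trimer known from early basement membranes. LAMA1 had log2 signals of 9.70, 9.77 and 9.62 at normal density and of 9.50, 9.45 and 9.50 at high density. LAMC1 had 9.76, 9.73 and 9.73 at normal density and 9.57, 9.59 and 9.52 at high density. In both genes all high density cultures were slightly below all normal density cultures, but the log2 FCs of −0.21 and −0.18 did not pass the adjusted p (0.0771 and 0.0918 from limma). LAMB1, with means of 9.22 ± 0.05 and 9.26 ± 0.01 (SD, n = 3), overlapped between the densities and had a log2 FC of 0.04 (95% interval −0.11 to 0.19).

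Among the other laminin chains, LAMA5, the α chain of many mature basement membranes, and LAMB2 had log2 FCs of −0.17 and −0.11. LAMA3 and LAMB3, chains of epithelial basement membranes, had log2 FCs of −0.37 and 0.22. LAMA3 was below background at both densities. LAMA3 (95% interval −0.65 to −0.09, adjusted p = 0.0753 by limma) was the only laminin chain whose interval passed beyond 1.5-fold. The 3 transcript clusters of LAMA4, and those of LAMA2 and LAMC3, were at or below background, so that these chains could not be followed.

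NID2, a nidogen that links laminin to type IV collagen, was the only one of the 4 nidogens and proteoglycans with an adjusted p below 0.05. Its log2 signals were 10.37, 10.33 and 10.33 at normal density and 9.998, 9.88 and 10.01 at high density. The groups were separate, and the log2 FC of −0.38 (SE 0.07, adjusted p = 0.00871 by limma) was below the FC threshold. NID1, the related nidogen, was below background at both densities. HSPG2, coding for perlecan, and AGRN, coding for agrin, are heparan sulfate proteoglycans of basement membranes and had log2 FCs of 0.01 (95% interval −0.21 to 0.23) and 0.25 (0.03 to 0.47).

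**Figure D3:**
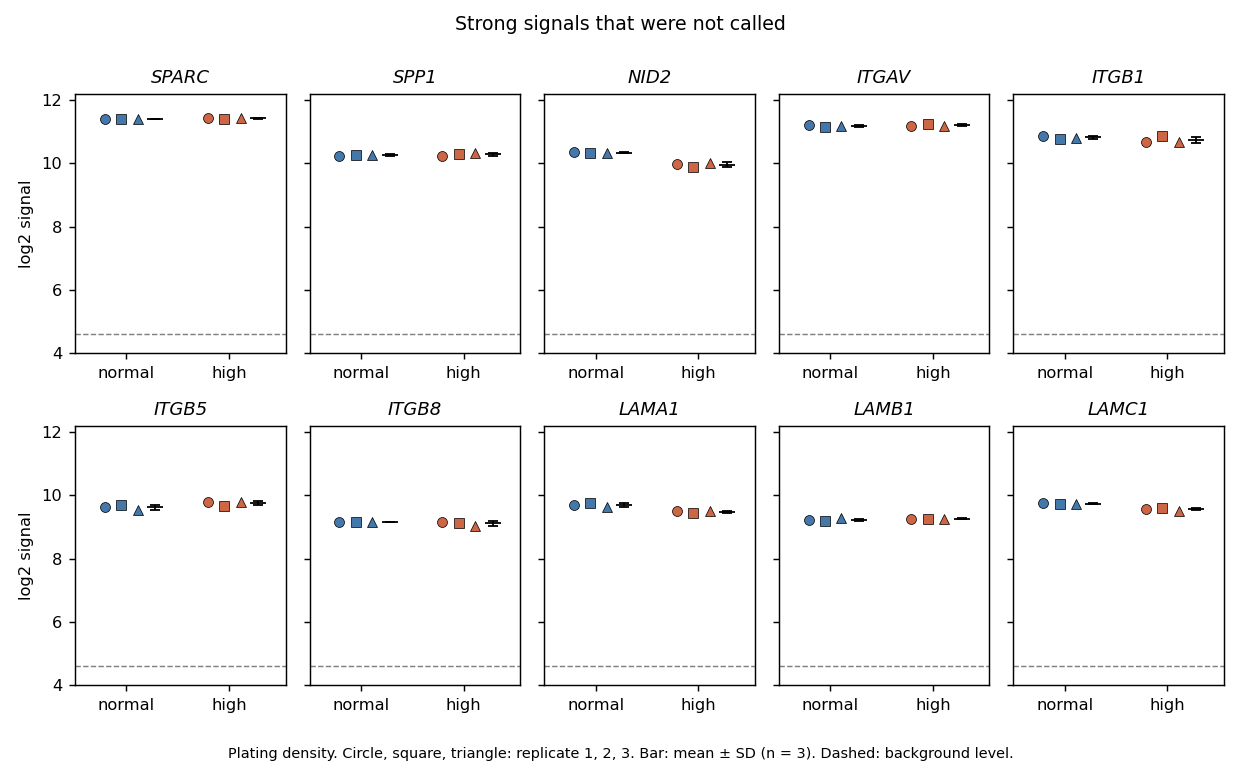
Log2 signal (y axis) in each culture at normal and high plating density (x axis) of the 10 uncalled genes whose means were above 9 at both densities, with the mean and SD of 3 cultures and the background level of 4.62 as a dashed line. NID2, LAMA1 and LAMC1 are slightly lower at high density in all cultures, whereas ITGAV, SPARC and SPP1 overlap between the densities.

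Of the 5 adhesive glycoproteins, TNC and FN1 were called higher and SPARC, SPP1 and VTN were not called. TNC (12895070), coding for tenascin-C, a matricellular protein of remodelled tissue, had the largest log2 FC of the family. Its log2 signals were 4.18, 3.97 and 4.24 at normal density, below background, and 6.26, 6.18 and 6.0 at high density. The log2 FC was 2.02 (SE 0.10, adjusted p = 3.78e-05 by limma), a 4.04-fold rise limited in size by the dim normal density signals.

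FN1 (12780102), coding for fibronectin, was measured at 8.83, 8.75 and 8.71 at normal density and at 9.84, 9.77 and 9.85 at high density on the log2 scale. The cultures of a density differed by little compared with the distance between the densities. The log2 FC was 1.06 (SE 0.07, adjusted p = 1.11e-04 by limma), a 2.08-fold rise with both means well above background.

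SPARC and SPP1 had strong signals that overlapped between the densities. SPARC codes for osteonectin, a collagen-binding matricellular protein, and had means of 11.40 ± 0.01 and 11.42 ± 0.02 (SD, n = 3). SPP1 codes for osteopontin, an RGD ligand, and had means of 10.27 ± 0.02 and 10.28 ± 0.04 (SD, n = 3). The 95% intervals of their log2 FCs were −0.13 to 0.17 for both. VTN, coding for vitronectin, was below background at both densities.

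Of the fibulins and fibrillin, FBLN1 and FBLN5 were called higher. FBLN1 (12859527), whose product binds fibronectin, nidogen and laminin, had log2 signals of 7.66, 7.57 and 7.39 at normal density and of 9.36, 9.16 and 9.40 at high density. The densities were far apart, with a log2 FC of 1.77 (SE 0.10, adjusted p = 5.81e-05 by limma), a 3.41-fold rise. It was the largest among the family members with both means above background.

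FBLN5 (12793325), needed for elastic fibre assembly and itself an integrin ligand, had log2 signals of 9.05, 9.03 and 9.04 at normal density and of 9.72, 9.60 and 9.60 at high density. Its spread was small, but the log2 FC of 0.60 (SE 0.07, adjusted p = 0.00107 by limma) was only just above the threshold. The call was lost without high density replicate 1, with a log2 FC of 0.56, and after the arrays were centred on a common median, with 0.55. FBLN2 passed the adjusted p (0.0133 from limma) at a log2 FC of 0.43, with a mean of 4.37 at normal density, below background, and of 4.80 at high density. FBN1, coding for the microfibril protein fibrillin-1, had a log2 FC of 0.16 (95% interval 0.01 to 0.30, adjusted p = 0.124 by limma).

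Of the 5 rows with an integrin-like symbol that are no chains, none was called. ITGB1BP1, whose product binds the tail of β1 and restrains integrin activation, had means of 7.60 ± 0.04 and 7.28 ± 0.15 (SD, n = 3), a log2 FC of −0.32 and adjusted p = 0.0459. by limma ITGB1BP2, a muscle protein, passed the adjusted p as well (0.0121 from limma) with a log2 FC of 0.49 at signals below background. ITGB3BP, a centromere protein, had a log2 FC of −0.47 (adjusted p = 0.0931 by limma), and of −0.63 with a call when high density replicate 2 was left out.

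Of the 10 calls, 5 held under every alternative that gave a value. ITGA2, ITGA4, ITGA6, ITGA11 and FBLN5 did not pass an FC of 2, ITGA2 did not pass the methods' t-test, and FBLN5 lost its call as given above. Without high density replicate 2, the culture that stood apart, all 10 calls remained and those of ITGA7 and ITGB3BP were added. With each of the 6 cultures left out in turn, the number of family members called higher was between 8 and 10.

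Genes that act with the family were described from 2 lists, which were chosen with earlier results of these data known. The first holds the proteins that tie integrins to actin and signal from them, such as talin, kindlin, vinculin and focal adhesion kinase. It was measured by 50 transcript clusters, 3 of which (ITGB1BP1, ITGB1BP2 and ITGB3BP) belong to the family as well. Of the 50, 4 were called higher and 1 lower, 10% in all compared with 7.49% of the table, and the median log2 FC was 0.04. A mean above background was found for 43 of the 50. In a fit limited to transcript clusters with such a mean, 13% of the table were called, and the list again had 4 higher calls and 1 lower. The 10% is therefore not read as an excess over the table. The adaptor LIMS2, a partner of integrin-linked kinase, had the largest rise, with log2 signals of 5.29, 5.23 and 5.14 at normal and of 7.49, 7.12 and 7.25 at high density. The change on the log2 scale was 2.07 (SE 0.11, adjusted p = 3.77e-05 by limma).

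The other calls of this list were smaller. The scaffold NEDD9 rose by 0.77 on the log2 scale, the paxillin relative TGFB1I1 by 0.72 and the actin linker TNS1 by 0.66. VCL, coding for vinculin, which joins talin to actin, had log2 signals of 9.27, 9.29 and 9.21 at normal density and of 8.68, 8.68 and 8.62 at high density. These groups were separate, and the log2 FC was −0.60 (SE 0.07, adjusted p = 9.48e-04 by limma), close to the threshold. The call of VCL was lost when replicate 2 of normal density (−0.58) or replicate 3 of high density (−0.58) was left out, which left no lower call in this list. TGFB1I1 and TNS1 were not called without high density replicate 1, at 0.58 and 0.57, and TNS1 was also lost without normal density replicate 3, at 0.58. The core genes TLN1 (talin), PTK2 (focal adhesion kinase) and ILK had log2 FCs of 0.05, −0.05 and 0.22, none of which passed the adjusted p. These 3 were chosen after their values were seen.

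The second list holds further matrix proteins and the receptors of laminin and collagen that are not integrins. Of its 64 transcript clusters 16 were called higher and 1 lower, 26.6% compared with 7.49% of the table, and the median log2 FC was 0.14. In the fit limited to means above background, 15 were called higher and 1 lower of 38, compared with 13% of the table. How far this share comes from the choice of the list cannot be told. COL15A1, a collagen of the zone beneath basement membranes, changed by 1.87 (SE 0.10, adjusted p = 3.80e-05 by limma) and COL18A1, the source of endostatin, by 1.37 (SE 0.10, adjusted p = 1.39e-04 by limma), both from a mean below background at normal density. SDC1, coding for the heparan sulfate receptor syndecan-1, had log2 signals of 5.63, 5.85 and 5.88 at normal and of 7.70, 7.41 and 7.56 at high density, which makes a log2 FC of 1.77. CTGF, a matricellular integrin ligand, had 9.16, 9.07 and 9.21 at normal density and 10.73, 10.74 and 10.73 at high density, with a log2 FC of 1.59. The high density cultures were nearly equal for CTGF. The only called fall was that of ECM2, coding for an extracellular matrix protein, with a log2 FC of −1.03 that ended below background. When replicate 3 of normal density or replicate 1 of high density was left out, DDR1 and SMOC1 were called lower as well, which gave 3 lower calls.

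**Figure D4:**
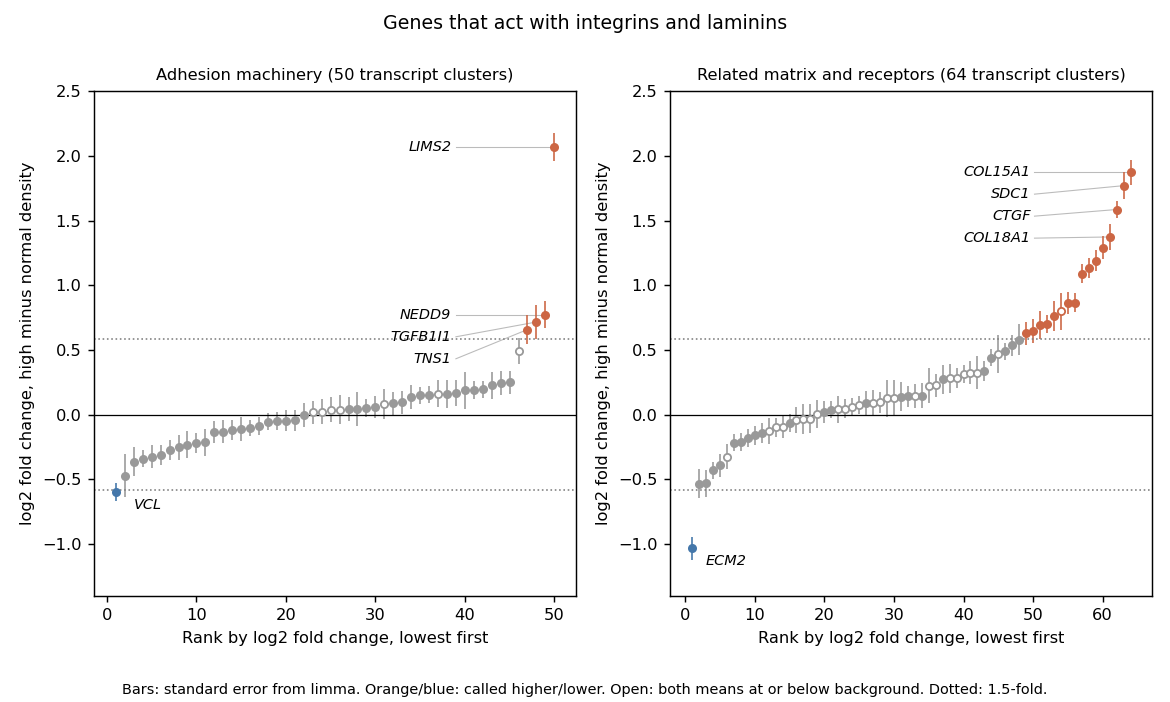
Log2 fold change (high minus normal density, y axis) of the transcript clusters of the adhesion machinery list (left) and of the related matrix and receptor list (right), ranked from lowest to highest on the x axis, with the standard error from limma and the fold change threshold as dotted lines. The called rises number 4 of 50 on the left and 16 of 64 on the right, and each list has 1 called fall, VCL and ECM2.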

How the data were processed

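RNA of 6 GC cultures, 3 per density, was hybridized to Affymetrix bovine whole-transcript arrays. The authors used Expression Console with RMA, which reduces background and normalizes, and deposited log2 signals, 1 per transcript cluster and culture. Genome build and annotation version are not given in the sources used here. The table has 26773 rows, 82 of them reporter controls, and 0 columns of other samples. No further normalization was applied. RMA draws arrays to a common distribution, so shifts shared by most genes are not seen.

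The test was that of limma (version 3.58.1, R version 4.3.3, functions lmFit and eBayes without covariates) over all rows, with Benjamini-Hochberg adjustment and the FC, p and FDR thresholds of the methods (1.5, 0.05 and 0.05). Precision is limited by the number of arrays. For 3 against 3, exact permutation cannot give a p below 0.1. The fits were also run on simulated data with known changes, drawn with the same spread at both densities. In the real data 68.4% of transcript clusters had a larger SD at high density, a setting that the simulation does not cover.

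An item among the 57 is counted but not reported here by name. Groups came from the sample descriptions. Plating densities and doses are those of the methods. The family, the roles and the gene lists were chosen with earlier results of these data known. Every called family member is named with its signal in each culture, uncalled ones by role, and of each list at most the 4 largest called rises and falls. Of 57 rows 55 have a symbol in RefSeq, and all 28 accessions found there carried the same symbol. Of 177 list entries, 4 were not found in the table. Of the theca list 3 of 7 genes were above background, with INSL3 called higher, LHCGR lower and CYP17A1 below background. Of the surface epithelium list 2 of 7 were above background and none called. Of the red blood cell list HBA alone, of 6 measured, was above background and called higher. Of the 12 GC markers 6 were called lower and 1 higher.

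Tried in place of these settings were an FC of 2, an FDR of 0.01, a background filter, 1 transcript cluster per gene, centring on the median, quantile normalization once more, array weights, a replicate block, a robust prior with variance trend, the methods' t-test (their analysis of variance) and each culture left out in turn. Leaving out the 5 rows that are no integrin chains was added after the data were seen. Python 3.11.15 and matplotlib 3.10.9 drew the figures.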

Additional observations from a re-analysis of the deposited data

How the results depend on the processing

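Over 16 alternatives, 5 of the 10 called family members were called under every alternative that gave a value, and 44 of the 47 uncalled ones were called under none. No log2 fold change of a called member reversed. At an FC of 2, 4 family members were called higher, with 1 higher and 0 lower calls in the adhesion machinery list and 8 higher calls in the related list. Array weights gave 2 lower calls in the family and 2 in the adhesion machinery list, ITGB3BP being added in both, and ITGA7 was then called higher. With each culture left out in turn, lower calls in the family were between 1 and 2, the second being ITGB3BP without high density replicate 2. In the adhesion machinery list higher calls were then between 2 and 4 and lower calls between 0 and 2, and in the related list lower calls were between 1 and 3. The methods' t-test did not call ITGA2, TGFB1I1 or, in the related list, EMILIN2. No pairing by replicate number was seen. Deviations of same-numbered cultures correlated at 0.05, −0.05 and −0.04, and those of other pairs from −0.07 to 0.09. Such weak correlations cannot show whether same-numbered cultures shared a cell pool. With the replicate block 9 family members were called higher and 1 lower. None of the 5 rows that are no integrin chains was called, so the counts without them are 9 and 1 of 52. The causes of these shifts were not tested. Signals at or below background limit 25 of the 57 transcript clusters.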
